A study of Mus musculus with 15 samples.

Results

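The comparison concerns astroglia of the adult mouse hippocampus and cerebellum that carried 2 genetic marks, one for past Sonic hedgehog (Shh) signalling and one for the astroglial promoter of Gfap. The arrays were chosen by their titles, which give 5 arrays of cells from hippocampus and 5 of cells from cerebellum, so 10 of the 15 arrays of the series were compared. The other 5 held the same kind of cell from the subventricular zone (SVZ). They entered the fit to share its estimate of the spread, and hippocampus was set against them once, at the end. Both groups came from male mice 6 to 8 weeks old of the genotype Gli1-CreER;GFAP-GFP;R26tdTomato. Tamoxifen (2 x 10 mg) switched on the red tdTomato reporter in cells expressing Gli1, and doubly labelled cells were sorted 3 weeks later, per the extraction protocol. The treatment label words this instead as tamoxifen given for that period. Each array carried amplified RNA from 10 to 12 pooled mice, so animals do not appear singly. The red mark records expression of the Gli1-driven recombinase at the time of tamoxifen, the green one current activity of the Gfap promoter, and neither is restricted by the labels to 1 cell subtype. Because brain region and the presence of a stem cell niche go together here, their contributions to a difference cannot be told apart.

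Shh is a secreted protein that binds the receptor Ptch1, frees the transducer Smo, and lets Gli transcription factors switch on targets such as Gli1 and Ptch1. In the adult forebrain, Shh supports the radial astrocytes that act as neural stem cells, in the dentate gyrus of the hippocampus among other places. In the cerebellum Purkinje neurons make Shh, and Bergmann glia, the unipolar astrocytes whose processes wrap Purkinje dendrites and synapses, are a main responding cell. Bergmann glia are known for AMPA-type glutamate receptors that pass calcium.

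Values are levels on the log2 RMA scale, where near-background genes read about 1 and the brightest about 15, and a difference of 1 is a 2-fold change. The labels name no log base, and the array medians of hippocampus (1.2 to 1.27) and cerebellum (1.12 to 1.17) were low for RMA, so sizes of differences hold only on this scale. A level is followed by its SD over 5 arrays and a difference, always hippocampus minus cerebellum unless said otherwise, by its standard error from limma. Hippocampus arrays were the more variable, with pairwise correlations across genes of 0.791 to 0.884 against 0.939 to 0.97 in cerebellum, and a median SD of 1.00 against 0.481 over genes with a mean above 3. Poly-A control transcripts, spiked into the RNA, read 12.46 ± 0.55 in hippocampus and 10.28 ± 1.6 in cerebellum, where cerebellum 4 (8.84) and cerebellum 5 (8.49) stood lowest. From 21.6% to 29% of genes read above 3 on the hippocampus arrays and 28.6% to 32% on the cerebellum arrays. As measures of RNA quality, 3 prime minus 5 prime control signals were 2.68 to 4.24 and 2.92 to 3.49 for Gapdh. For Actb they were -1.88 to -0.38 and -0.73 to -0.37. Nothing in the labels says how the replicates of a region were separated beyond the pooling, so p values measure the spread between these samples, which may be partly technical. With 5 arrays each, their number limits the precision, and in sorted bulk RNA fewer cells of a type and less RNA per cell cannot be told apart.

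Genes lower in hippocampus outnumbered those higher by far, on hippocampus arrays where mostly a smaller share of genes read above 3. The part of that smaller share in the split of calls was not tested. Among 18193 genes, 147 were called higher in hippocampus (0.808%) and 722 lower (3.97%) at a Benjamini-Hochberg adjusted p under 0.05 in limma. Among 5732 genes with a mean of at least 3 in either region, 98 were higher (1.71%) and 633 lower (11%). Counts of called list members given below are to be set beside these shares, the second pair where most members reached that level. A count near them says nothing particular about the list. Most members reached it in the astrocyte (40 of 40), Bergmann (30 of 35), stem cell (33 of 42) and transmitter transport (27 of 41) lists. So did most of the membrane (19 of 26), adhesion (36 of 63), cyclic AMP (32 of 55) and immediate early (26 of 40) lists. The same held for lipid (40 of 50), energy (41 of 50), respiratory chain (47 of 48) and ribosomal (29 of 34) genes. Choroid plexus markers (14 of 20) did too, and in other lists it was not most members. The thresholds named in the design text, a difference past 4-fold with p under 0.01 before adjustment, left 77 genes higher (0.423%) and 445 lower (2.45%). The difference exceeded 16-fold for 11 genes called higher and 49 called lower, and reached 54.6-fold for Cadm1 and 178-fold, in the negative direction, for Gria4. Arrays of the 2 regions did not overlap for 487 genes in the positive direction (2.68%) and 965 in the negative (5.3%), and 122 (0.671%) and 585 (3.22%) of these were also called. Hippocampus lay near background, with a mean under 2, for 270 of the genes called lower (37.4%), and cerebellum did so for 73 of those called higher (49.7%), so that folds of such genes are understated. Over all genes the median difference was 0.07, and over the 5732 genes with a mean of at least 3 in either region it was -0.75. List medians given below are to be read beside both values.

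The split between higher and lower calls moved with scaling. The number of calls also moved when the spike-in level entered the model or single arrays were left out. Quantile normalization gave 155 genes higher and 337 lower, so that 31.5% of calls were higher in place of 16.9%. Median centring moved the median over all genes to -0.04 and gave 110 and 952. Spike-in signal itself differed between hippocampus (12.46 ± 0.55) and cerebellum (10.28 ± 1.6), so a fit with it cannot fully separate it from region. With spike-in signal added to the model, 34 were higher and 178 lower, a share of higher calls of 16%. That share was 13.9% to 19.6% when 1 array was left out. The count of genes called lower was 469 without cerebellum 2, 465 without cerebellum 4 and 456 without cerebellum 5, and that of genes called higher was 76, 84 and 92 in the same order and 228 without hippocampus 2. Leaving out cerebellum 4 and cerebellum 5 together, a choice made after seeing the data, left 61 and 297. Of the 158 called genes named here, 108 passed in each of the 10 fits that left out 1 array, 121 passed after quantile normalization and 72 with the spike-in covariate. For those lost in such a fit, the number of those 10 fits in which the gene passed is given where it is named, with the largest adjusted p among them and the array then left out, and with all arrays whose loss ended the call where these were 4 or fewer. Of the genes that passed in all 10 fits, Cacng4, Kcnip3, Map2, Slc4a4 and Tppp3 were lost after quantile normalization (limma adjusted p = 0.0654 to 0.08). Other losses there are given only for the Shh pathway. Loss with the spike-in covariate is not given gene by gene. Among the 15 largest non-overlapping differences each way it befell Nr2e1, Chst1, Ncan, Csf1r, Grin2c and Mki67 (higher) and Gpd1 and Slc38a1 (lower). Vim was lost there too. Of these genes, Grin2c and Mki67 had larger differences with the covariate than without it, and the others smaller ones.

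**Figure D1:**
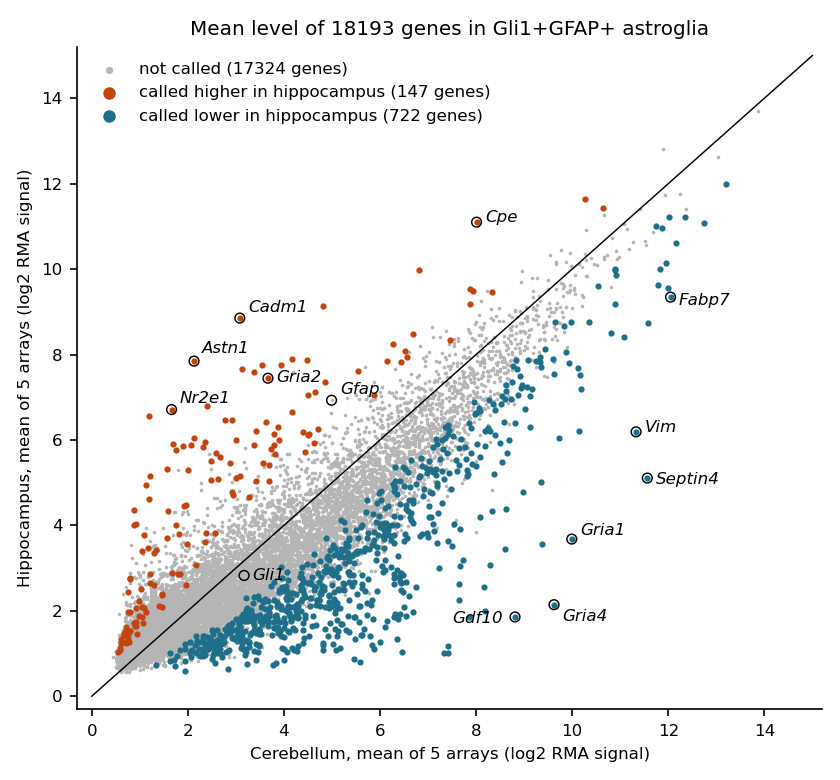
Mean level of each of 18193 genes over 5 cerebellum arrays (horizontal, log2 RMA signal) and 5 hippocampus arrays (vertical, log2 RMA signal), with the line of equal levels. The 147 genes called higher in hippocampus lie above the line and the 722 called lower below it, with Gria4 and Gdf10 far below and Cadm1, Astn1 and Nr2e1 far above.

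The genes behind the sort were read first. Gli1, the transcription factor whose locus drives the recombinase, read 2.12, 2.19, 2.07, 1.54 and 6.22 on the hippocampus arrays and 3.36, 3.66, 2.73, 3.11 and 3.0 on the cerebellum arrays. Hippocampus 5 stood apart at 6.22, the other 4 hippocampus arrays lay below every cerebellum array, and the difference of -0.34 ± 0.8 (adjusted p = 0.819) did not pass. Without hippocampus 5 the difference was -1.19. Gfap, the intermediate filament gene of astrocytes, read 6.83, 6.46, 7.6, 7.56 and 6.2 on the hippocampus arrays and 3.26, 5.62, 4.15, 6.03 and 5.9 on the cerebellum arrays. Its arrays did not overlap, yet the difference of 1.94 ± 0.59 (adjusted p = 0.0843) did not pass, and of its 2 further probe sets 1 had the same sign.

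Within the Shh pathway, the receptor and 1 co-receptor were lower in hippocampus. Ptch1, receptor and target of Shh, read 7.48, 6.21, 7.33, 7.57 and 6.65 on the hippocampus arrays and 8.05, 9.32, 8.11, 9.79 and 9.08 on the cerebellum arrays, without overlap. It was lower, at -1.82 ± 0.42 (adjusted p = 0.0231), and passed in 6 of 10 fits, largest adjusted p = 0.0649 without cerebellum 4, not without hippocampus 5, cerebellum 2, cerebellum 4 or cerebellum 5. Gas1, a membrane co-receptor that aids Shh binding, read 5.35, 3.41, 5.1, 6.69 and 4.89 on the hippocampus arrays and 6.8, 7.72, 6.39, 8.42 and 7.3 on the cerebellum arrays, where hippocampus 4 overlapped the cerebellum range. Its difference was -2.24 ± 0.57 (adjusted p = 0.039), and it passed in 2 of 10 fits, largest adjusted p = 0.102 without cerebellum 4. Cdon, another co-receptor, was higher by 0.9 ± 0.23 (adjusted p = 0.0393) at levels near background in both regions (1.63 ± 0.61 and 0.72 ± 0.12), and passed in 2 of 10 fits, largest adjusted p = 0.0928 without cerebellum 2. After quantile normalization none of these 3 calls held (adjusted p = 0.112 for Ptch1, 0.168 for Gas1 and 0.125 for Cdon).

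The transducer Smo varied widely, at 5.12, 5.83, 7.05, 5.4 and 2.07 on the hippocampus arrays and 5.07, 4.89, 2.48, 5.83 and 5.22 on the cerebellum arrays, and its difference was 0.4 ± 1.27 (adjusted p = 0.872). Without hippocampus 3 it was -0.09 and without cerebellum 3 -0.16, so no direction is given. Gli2, the main activator among the Gli factors, read 4.26 ± 1.74 against 2.01 ± 0.80, a difference of 2.24 ± 0.67 (adjusted p = 0.0769), and 1.61 without hippocampus 3, its highest array. Gli3, which acts mostly as a repressor, differed by 0.29 ± 0.68 (adjusted p = 0.823), and Hhip, an Shh-binding antagonist and target, by -0.19 ± 0.35 (adjusted p = 0.772). In all, 1 of 19 measured members of the pathway was called higher and 2 lower, with a median difference of 0.11 against 0.07 over all genes. The other 11 measured members, none of which was called, are described by that count alone.

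Leading genes in the positive direction included cell surface and matrix genes and a stem cell regulator. Cadm1, an immunoglobulin-family adhesion molecule, read 9.18, 8.12, 9.12, 8.46 and 9.39 on the hippocampus arrays and 5.0, 2.6, 2.04, 2.52 and 3.25 on the cerebellum arrays. Astn1 (astrotactin 1), a surface protein known from migrating neurons, read 8.3, 6.51, 8.46, 7.01 and 8.95 on the hippocampus arrays and 3.26, 1.72, 0.7, 1.46 and 3.51 on the cerebellum arrays. Gpc5, a glypican that carries heparan sulfate, read 7.24, 5.58, 7.0, 6.76 and 6.21 on the hippocampus arrays and 2.75, 0.85, 0.89, 0.9 and 0.62 on the cerebellum arrays. For all 3 the lowest hippocampus array stood above the highest cerebellum array, and the differences were 5.77 ± 0.47 (adjusted p = 4.53e-06) for Cadm1, 5.72 ± 0.57 (adjusted p = 3.34e-05) for Astn1 and 5.36 ± 0.52 (adjusted p = 2.63e-05) for Gpc5.

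Nr2e1 (Tlx), a nuclear receptor that adult neural stem cells need for self-renewal, read 5.31, 5.09, 8.89, 7.8 and 6.47 on the hippocampus arrays and 3.69, 1.05, 1.07, 0.9 and 1.6 on the cerebellum arrays. Cerebellum 1, at 3.69, stood above the other cerebellum arrays, and hippocampus 3 and hippocampus 4 were highest. The difference was 5.05 ± 0.81 (adjusted p = 0.00207). Rapgef3 (Epac1), an exchange factor switched on directly by cyclic AMP, read 9.21, 8.31, 9.15, 9.47 and 9.53 on the hippocampus arrays and 6.35, 5.33, 3.09, 4.37 and 4.95 on the cerebellum arrays, with a difference of 4.32 ± 0.49 (adjusted p = 0.000102). Fzd2, a Wnt receptor, read 7.5, 6.13, 6.26, 6.76 and 7.29 on the hippocampus arrays and 3.08, 1.34, 1.72, 2.63 and 3.19 on the cerebellum arrays, with a difference of 4.4 ± 0.42 (adjusted p = 1.97e-05). Neither gene overlapped between regions.

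Several of the rest build or modify the hyaluronan and proteoglycan matrix. Chst1, a sulfotransferase of keratan sulfate, differed by 4.52 ± 0.71 (adjusted p = 0.00183), with cerebellum 1 at 5.78 far above the other 4 (2.29 to 2.69), and by 5.19 without it. Papss2, which makes the sulfate donor of such enzymes, differed by 3.82 ± 0.54 (adjusted p = 0.000728). Hapln1, the link protein that fixes proteoglycans to hyaluronan, differed by 4.22 ± 0.6 (adjusted p = 0.000744), and Ncan (neurocan), one of those proteoglycans, by 4.2 ± 0.59 (adjusted p = 0.000727). Olig1, a transcription factor of the oligodendrocyte lineage found also in astrocyte precursors, differed by 4.02 ± 0.28 (adjusted p = 1.23e-06), and Tpbg, a leucine-rich surface glycoprotein, by 3.95 ± 0.51 (adjusted p = 0.000383).

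Csf1r, a receptor known from microglia, was also among the leading genes, at 8.81, 8.29, 9.05, 5.18 and 7.49 on the hippocampus arrays and 3.84, 3.52, 4.1, 1.85 and 4.37 on the cerebellum arrays. Hippocampus 4 was the lowest of its group. The difference was 4.23 ± 0.92 (adjusted p = 0.0162), and 4.87 without hippocampus 4. The microglia list as a whole stood higher in hippocampus, with a summed linear signal of 354 to 2920 against 78.8 to 354, and 30 of its 31 measured members had a positive difference. Of its members 3 were called higher, namely Csf1r, Laptm5 (a lysosomal protein of leukocytes) at 3.72 ± 0.85 (adjusted p = 0.0212), passing in 7 of 10 fits, largest adjusted p = 0.0568 without cerebellum 2 but not without hippocampus 3, cerebellum 2 or cerebellum 4, and Sall1, a nuclear factor of microglia and also of radial glia, at 2.35 ± 0.56 (adjusted p = 0.0274), passing in 3 of 10, largest adjusted p = 0.072 without cerebellum 5. Further probe sets of these 3 genes had the same sign, but none was called. They differed by 0.35 to 2.48 for the 2 of Csf1r, 0.11 to 0.58 for the 4 of Laptm5 and 0.1 for the 1 of Sall1. When the probe sets of a gene were averaged, the calls of Csf1r and Laptm5 were lost. Among defining markers Cx3cr1 had a median of 2.17 in hippocampus and Tyrobp of 6.01, against 1.29 and 3.41 in cerebellum, and neither was called. Aif1 and C1qa, also uncalled, had medians of 2.14 and 2.1 against 1.18 and 0.91. The part of microglial RNA in other differences was not tested.

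The genes furthest in the negative direction included receptors, enzymes and signals, several of them known from Bergmann glia. Gria4, an AMPA receptor subunit, read 2.34, 1.39, 1.84, 3.27 and 1.88 on the hippocampus arrays and 10.03, 10.26, 9.38, 9.32 and 9.12 on the cerebellum arrays. The regions stood far apart, and the difference was -7.48 ± 0.69 (adjusted p = 1.35e-05). Gdf10, a secreted factor of the BMP family made by Bergmann glia, read 3.05, 2.08, 1.18, 1.27 and 1.7 on the hippocampus arrays and 7.73, 8.92, 8.42, 9.8 and 9.18 on the cerebellum arrays, with a difference of -6.95 ± 0.63 (adjusted p = 1.27e-05). Septin4, a cytoskeletal GTPase of Bergmann glial processes, read 3.72, 5.44, 6.28, 4.69 and 5.41 on the hippocampus arrays and 11.13, 11.66, 11.48, 11.73 and 11.82 on the cerebellum arrays. It was bright in cerebellum and above 3 on each hippocampus array, with a difference of -6.46 ± 0.56 (adjusted p = 8.62e-06).

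Mybpc1, best known as a myosin-binding protein of slow muscle, read 1.22, 0.68, 1.5, 0.73 and 0.96 on the hippocampus arrays and 7.95, 7.39, 7.2, 7.38 and 7.16 on the cerebellum arrays. Dao, the oxidase that degrades D-serine, read 0.61, 0.85, 0.98, 1.37 and 1.21 on the hippocampus arrays and 7.26, 7.54, 6.91, 7.64 and 7.29 on the cerebellum arrays. Aldh1a1, which makes retinoic acid from retinaldehyde, read 1.15, 1.28, 0.89, 1.5 and 1.02 on the hippocampus arrays and 8.32, 7.61, 6.93, 7.04 and 7.13 on the cerebellum arrays. All 15 hippocampus readings of these 3 genes were at 1.5 or below, near background, and the differences were -6.4 ± 0.37 (adjusted p = 1.64e-07), -6.32 ± 0.57 (adjusted p = 1.2e-05) and -6.24 ± 0.36 (adjusted p = 1.8e-07) in the same order.

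The rest of that group spanned transport and metabolism. Slc38a1, a glutamine transporter, differed by -5.81 ± 0.85 (adjusted p = 0.00101), and Slco4a1, an organic anion transporter that carries thyroid hormone, by -5.6 ± 0.6 (adjusted p = 6.02e-05). Cnpy1, a gene of the canopy family, differed by -5.42 ± 0.27 (adjusted p = 8.93e-08), Them4, a thioesterase, by -5.39 ± 0.3 (adjusted p = 1.64e-07), and A2m (alpha-2-macroglobulin), a protease inhibitor, by -5.15 ± 0.62 (adjusted p = 0.000194). The 1 further probe set of Them4 differed by 0.17 and was not called. Gpd1, the cytosolic glycerol-3-phosphate dehydrogenase, read 4.41, 3.46, 0.97, 1.26 and 5.25 on the hippocampus arrays and 7.71, 8.57, 8.07, 8.89 and 8.21 on the cerebellum arrays. It was uneven within hippocampus, where arrays 3 and 4 were near background, and differed by -5.22 ± 0.86 (adjusted p = 0.00239).

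**Figure D2:**
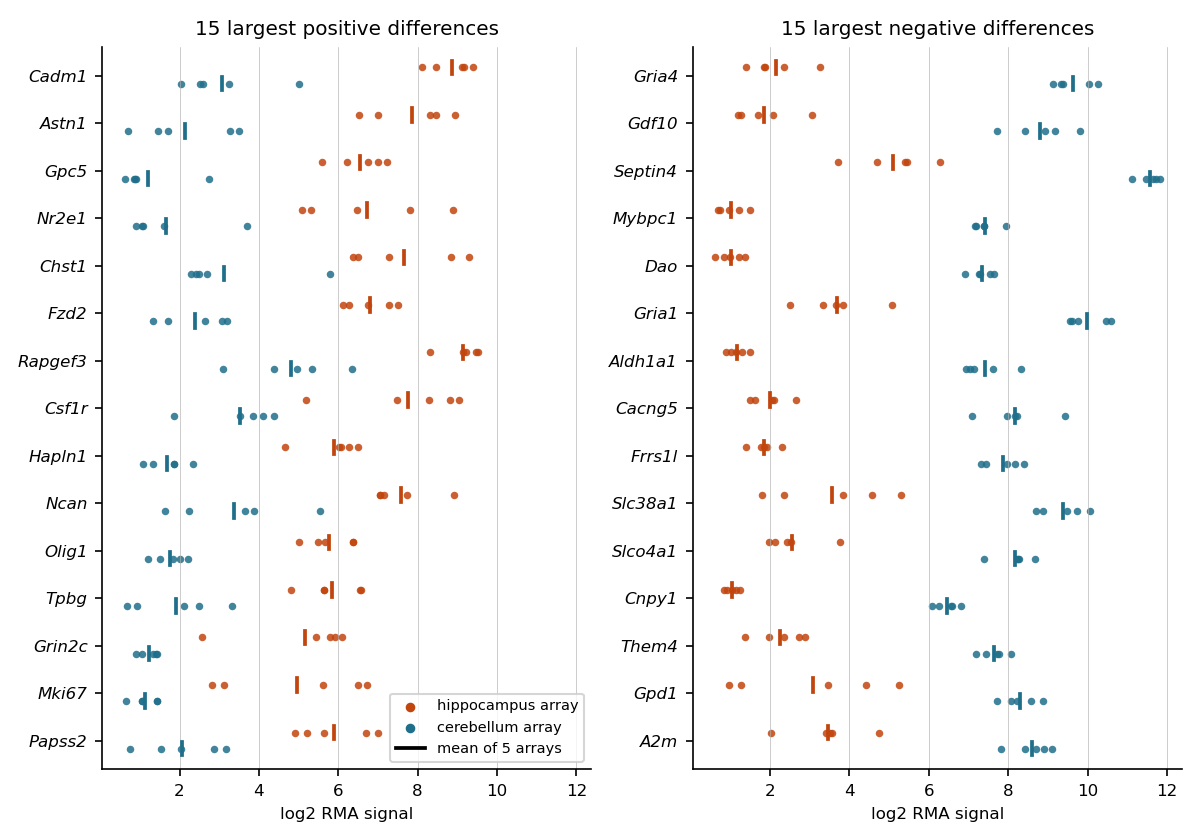
Each point is 1 array and each bar the mean of 5 arrays (log2 RMA signal) for the 15 called genes with the largest positive and the 15 with the largest negative difference among those whose arrays do not overlap. Cerebellum arrays are closely grouped in the right panel, whereas in the left panel single cerebellum arrays stand apart for Chst1, Gpc5 and Nr2e1.

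Sequence just upstream of transcription starts was read for the leading genes, and 3 stretches are shown for genes that differed in opposite directions. Promoters came from RefSeq on GRCm38.p6, and the 250 bases before each start were searched on both strands. The table, from which a single chromosome was left out, held 144 of the 182 genes that the naming rule selected. It held 11 of the 15 leading genes each way. Motif matches among these were in Nr2e1 and Ncan, higher in hippocampus, and in Slco4a1 (GTGGGAA), lower in hippocampus and not shown. The stretches shown are Nr2e1 (chr10:42583591-42583840, minus strand) and Ncan (chr8:70120845-70121094, minus strand), both higher in hippocampus, and Gria4 (chr9:4796235-4796484, minus strand), lower in hippocampus. Capitals mark a cyclic AMP response element (TGACGTCA) in Nr2e1, starting at position -125 from the start. In Ncan they mark an RBPJ motif, the partner of Notch (GTGGGAA, on the opposite strand), at -209 and the NRF1 motif at -39.
Nr2e1: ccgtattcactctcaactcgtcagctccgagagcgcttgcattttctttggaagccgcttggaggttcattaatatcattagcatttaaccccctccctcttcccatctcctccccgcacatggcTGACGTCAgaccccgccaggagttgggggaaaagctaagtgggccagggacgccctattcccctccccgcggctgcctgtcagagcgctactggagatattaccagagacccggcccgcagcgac
Ncan: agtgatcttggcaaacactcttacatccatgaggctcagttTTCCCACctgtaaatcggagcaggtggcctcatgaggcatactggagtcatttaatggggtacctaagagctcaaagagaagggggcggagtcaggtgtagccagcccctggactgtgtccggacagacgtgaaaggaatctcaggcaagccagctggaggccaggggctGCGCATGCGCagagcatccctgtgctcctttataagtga
Gria4: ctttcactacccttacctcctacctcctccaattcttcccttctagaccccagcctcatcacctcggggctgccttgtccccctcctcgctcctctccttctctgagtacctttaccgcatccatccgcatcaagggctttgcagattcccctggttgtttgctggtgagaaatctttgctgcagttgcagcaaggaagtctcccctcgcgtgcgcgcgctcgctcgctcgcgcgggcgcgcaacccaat
None of the motifs searched was found in the Gria4 stretch, which says only that these letters are not in this window. Among the 14452 tested genes with a promoter in the table, TGACGTCA stood in 2.5%, GTGGGAA in 6.44% and the NRF1 motif in 7%. Among 117 genes called higher with a promoter the shares were 3.42%, 10.3% and 2.56%, and among 570 called lower 2.28%, 4.91% and 8.77%. The Gli motif GACCACCCA stood in 0.215% of tested genes, in 2 promoters of genes called lower and in 0 of those called higher. The palindromic NFI motif stood in 0.0415% and in 0 of either group. These motifs do not overlap one another in the windows shown, and a match is a description and not a binding site.

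Genes of AMPA receptor subunits differed in both directions. AMPA receptors are tetramers of Gria1 to Gria4, and those lacking an edited Gria2 pass calcium. Gria1 read 5.07, 3.65, 2.5, 3.33 and 3.85 on the hippocampus arrays and 10.58, 10.47, 9.75, 9.6 and 9.56 on the cerebellum arrays, and differed by -6.31 ± 0.95 (adjusted p = 0.00122). Gria2 read 7.81, 6.39, 7.29, 7.97 and 7.77 on the hippocampus arrays and 4.59, 3.18, 3.34, 3.55 and 3.68 on the cerebellum arrays, in the opposite direction, and differed by 3.78 ± 0.39 (adjusted p = 4e-05). Both of its further probe sets were also called higher, and those of Gria1 and Gria4 were called lower. Gria3 was near background on the arrays of both regions, at most 1.24 in hippocampus and 1.41 in cerebellum.

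Genes of receptor partners that were called were lower in hippocampus. Cacng5, an auxiliary subunit (TARP) of AMPA receptors, read 2.1, 2.06, 1.62, 1.5 and 2.65 on the hippocampus arrays and 7.1, 8.16, 7.97, 9.43 and 8.23 on the cerebellum arrays, and differed by -6.19 ± 0.51 (adjusted p = 5.07e-06). Frrs1l, needed for assembly of AMPA receptors, read 1.85, 1.39, 2.3, 1.93 and 1.77 on the hippocampus arrays and 7.97, 8.18, 7.32, 8.4 and 7.43 on the cerebellum arrays, and differed by -6.01 ± 0.39 (adjusted p = 4.63e-07). Cacng7, a further TARP, differed by -3.51 ± 0.4 (adjusted p = 0.000116), Shisa9, an AMPA receptor modulator, by -4.03 ± 0.48 (adjusted p = 0.000149), and Cacng4 by -1.18 ± 0.24 (adjusted p = 0.0123). Grin2c, a subunit of NMDA receptors found in astrocytes and cerebellar granule neurons, read 5.93, 5.44, 6.1, 2.57 and 5.79 on the hippocampus arrays and 1.42, 1.06, 1.41, 0.9 and 1.32 on the cerebellum arrays. Hippocampus 4 stood well below the other 4, the difference was 3.94 ± 0.93 (adjusted p = 0.0261), and it was called in 4 of 10 fits, largest adjusted p = 0.0655 without hippocampus 3. Without hippocampus 4 the difference was 4.59. Over the list of glutamate receptors and partners 2 of 34 measured members were called higher and 8 lower, and the median difference was 0.09 against 0.07 over all genes.

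**Figure D3:**
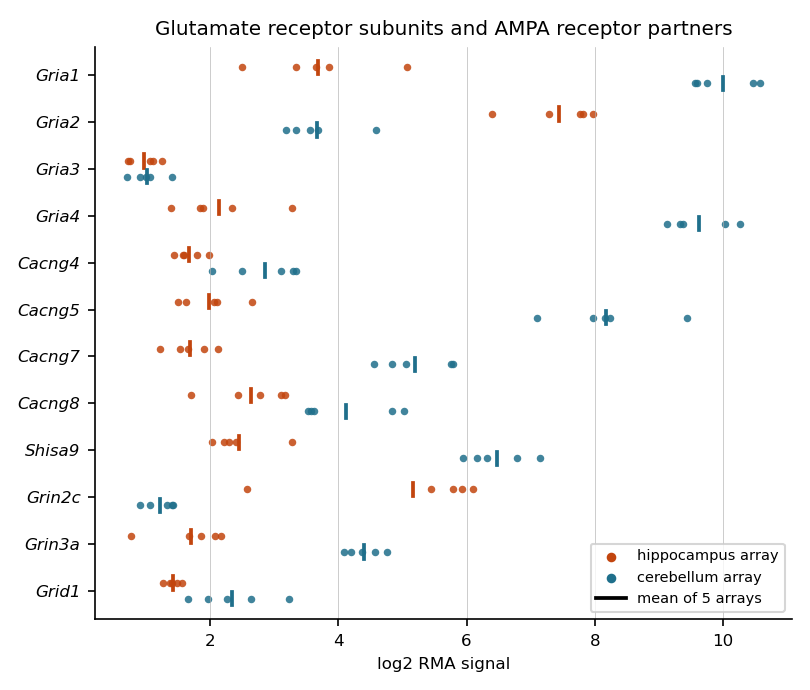
Level of glutamate receptor subunits and AMPA receptor partners on each array (points, log2 RMA signal) with the mean of 5 arrays (bars). Gria1, Gria4, Cacng5 and Shisa9 are far higher on the cerebellum arrays, Gria2 and Grin2c on the hippocampus arrays, and Gria3 is near background in both.

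Genes known from Bergmann glia and cerebellar astrocytes were mostly lower in hippocampus, with 22 of 35 measured members called lower, 3 called higher and a median difference of -2.41. Besides the genes above, Vim (vimentin), an intermediate filament, read 4.11, 8.65, 6.31, 5.2 and 6.68 on the hippocampus arrays and 11.16, 11.39, 11.29, 11.61 and 11.2 on the cerebellum arrays. Hippocampus 2 was the highest of its group and still below the cerebellum arrays, and the difference was -5.14 ± 0.74 (adjusted p = 0.000875), or -5.76 without hippocampus 2. Slc1a3 (GLAST), the main glutamate transporter of Bergmann glia, differed by -2.16 ± 0.35 (adjusted p = 0.00244), Fabp7 (BLBP), a fatty acid binding protein of radial glia, by -2.7 ± 0.22 (adjusted p = 4.71e-06), and S100b, a calcium-binding protein, by -3.67 ± 0.42 (adjusted p = 0.000118). All 3 were bright in both regions, with hippocampus means of 9.64, 9.34 and 6.04. Members that were higher were Fabp5 at 1.33 ± 0.33 (adjusted p = 0.0361) (passing in 2 of 10 fits, largest adjusted p = 0.0955 without cerebellum 5), Prdm16 at 2.6 ± 0.66 (adjusted p = 0.0371) (4 of 10, largest adjusted p = 0.0962 without cerebellum 2) and Acan at 0.73 ± 0.18 (adjusted p = 0.0352) (3 of 10, largest adjusted p = 0.0877 without cerebellum 5), a proteoglycan near background in both regions.

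Core astrocyte genes were present in both regions. Their summed linear signal was 22800 to 36600 over the hippocampus arrays and 37200 to 59000 over the cerebellum arrays, without overlap, and 4 of 40 were called higher, 11 lower, with a median of -0.67. All 40 had a mean of at least 3 in either region, and the median over all such genes was -0.75. Higher were Cpe (carboxypeptidase E), a peptide-processing enzyme, at 3.09 ± 0.23 (adjusted p = 2.23e-06), Slco1c1, a thyroid hormone transporter, at 3.8 ± 0.79 (adjusted p = 0.0125), Cst3 (cystatin C) at 1.37 ± 0.19 (adjusted p = 0.000727) and Clu (clusterin) at 0.78 ± 0.16 (adjusted p = 0.0103). For Cpe the levels were 11.54, 10.72, 11.1, 11.25 and 10.89 on the hippocampus arrays and 8.8, 7.97, 7.77, 7.78 and 7.73 on the cerebellum arrays, so it was bright in both groups. The difference of Slco1c1 was 3.0 without cerebellum 2 and 4.57 without cerebellum 5. Lower were Gjc3, a connexin, at -4.77 ± 0.5 (adjusted p = 4.6e-05), Sparc, a matrix protein that opposes synapse formation, at -2.68 ± 0.23 (adjusted p = 7.1e-06), and Aldoc (aldolase C) at -0.9 ± 0.23 (adjusted p = 0.0394) (3 of 10, largest adjusted p = 0.105 without cerebellum 4). The list holds members of the Bergmann list, so the counts are not independent.

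Forebrain transcription factors that were called were higher in hippocampus, and those of midbrain and hindbrain lower. Of 35 measured forebrain factors 5 were called higher and 0 lower, with a median of 0.41, and of 40 midbrain and hindbrain factors 0 were higher and 6 lower, with a median of 0.06. Fezf2, a factor of forebrain patterning, read 4.2, 2.67, 3.36, 5.09 and 4.77 on the hippocampus arrays and 1.79, 0.62, 0.68, 0.99 and 0.31 on the cerebellum arrays, and Lhx2, a selector of cortical and hippocampal identity, read 5.01, 4.84, 3.02, 4.67 and 2.66 on the hippocampus arrays and 1.97, 0.3, 1.02, 0.74 and 0.54 on the cerebellum arrays. Neither overlapped, and the differences were 3.14 ± 0.42 (adjusted p = 0.000433) and 3.13 ± 0.56 (adjusted p = 0.00447). Emx2, which patterns the dorsal telencephalon and hippocampus, differed by 1.98 ± 0.31 (adjusted p = 0.00163), and Nr2f2 (COUP-TFII) by 2.09 ± 0.48 (adjusted p = 0.0234), passing in 5 of 10 fits, largest adjusted p = 0.0681 without cerebellum 4. Emx2 read 2.78 ± 0.76 against 0.80 ± 0.22, and Nr2f2 3.43 ± 0.88 against 1.34 ± 0.72. With values under 3 raised to 3, Fezf2, Lhx2, Emx2 and Nr2f2 did not pass, whereas Nr2e1 did. Of the 35 forebrain factors, 15 stayed under 2 on each hippocampus array and 27 on each cerebellum array.

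On the hindbrain side, Pax3 read 1.49, 1.32, 1.33, 1.26 and 0.89 on the hippocampus arrays and 5.24, 4.7, 4.13, 5.45 and 4.53 on the cerebellum arrays, without overlap, and differed by -3.55 ± 0.25 (adjusted p = 1.17e-06). En2 (engrailed 2), a factor of the midbrain-hindbrain boundary and cerebellum, differed by -0.95 ± 0.17 (adjusted p = 0.0041), between levels of 1.21 ± 0.19 and 2.16 ± 0.32. The Iroquois factors differed by -1.57 ± 0.42 (adjusted p = 0.0484) for Irx1 (2 of 10 fits, largest adjusted p = 0.112 without cerebellum 2), -1.23 ± 0.29 (adjusted p = 0.0252) for Irx2 (4 of 10, largest adjusted p = 0.0704 without cerebellum 4) and -1.32 ± 0.31 (adjusted p = 0.0261) for Irx5 (4 of 10, largest adjusted p = 0.0695 without cerebellum 4). Most of these readings were close to background, and 26 of the 40 measured hindbrain factors stayed under 2 on each cerebellum array.

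Stem cell and radial glia genes were called in both directions. Of 42 measured, 5 were higher and 10 lower, with a median of 0.11. Prom1 (CD133), a surface protein of stem and ependymal cells, read 5.99, 5.82, 4.6, 6.46 and 3.7 on the hippocampus arrays and 3.86, 0.53, 1.24, 1.04 and 1.21 on the cerebellum arrays, where cerebellum 1 overlapped hippocampus, and differed by 3.74 ± 0.77 (adjusted p = 0.0114). Id3, an inhibitor of basic helix-loop-helix factors induced by BMP, differed by 1.28 ± 0.33 (adjusted p = 0.043) (3 of 10 fits, largest adjusted p = 0.105 without cerebellum 2). Nes (nestin), the intermediate filament gene often used to mark neural stem cells, was higher by 0.65 ± 0.17 (adjusted p = 0.0395) but near background on the hippocampus arrays, at 1.73 ± 0.33 (3 of 10, largest adjusted p = 0.106 without cerebellum 5). Lower, besides Vim, Fabp7 and Slc1a3, were Tnc (tenascin C), a matrix protein of stem cell niches, at -3.75 ± 0.67 (adjusted p = 0.0045), Lpar1, a lysophosphatidic acid receptor, at -3.51 ± 0.4 (adjusted p = 9.8e-05), Sned1, a matrix protein, at -3.49 ± 0.57 (adjusted p = 0.00242), and Bmpr1a, a BMP receptor, at -1.97 ± 0.21 (adjusted p = 5.85e-05).

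Cell cycle genes were called for 2 of 46 measured members, both higher, with a median of 0.31. Mki67 (Ki-67), present in dividing cells, read 2.83, 6.49, 6.72, 3.11 and 5.62 on the hippocampus arrays and 1.43, 1.06, 1.06, 1.42 and 0.65 on the cerebellum arrays. Hippocampus arrays 1 and 4 were low and the other 3 at 5.62 or above, and the difference was 3.83 ± 0.75 (adjusted p = 0.0085). Ccnd2 (cyclin D2), which adult hippocampal precursors need to divide, differed by 2.99 ± 0.66 (adjusted p = 0.0175) (9 of 10, largest adjusted p = 0.0518 without cerebellum 4, not without cerebellum 4) and by 3.59 without cerebellum 5, its highest cerebellum array. Of 35 measured genes of neuroblasts and immature neurons, Stmn1 (stathmin), a microtubule regulator, was higher by 1.69 ± 0.34 (adjusted p = 0.0105) and 1 was lower. Calb1 (calbindin), which is also a Purkinje neuron gene, is that member and differed by -1.61 ± 0.21 (adjusted p = 0.000388). Of its 3 further probe sets 1 had the same sign, and its call was lost when the probe sets of a gene were averaged.

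Notch signalling, which keeps neural stem cells undifferentiated, had 2 of 30 measured members higher and 2 lower. Nrarp, a target and feedback inhibitor of Notch, read 5.09, 6.33, 6.88, 7.41 and 6.61 on the hippocampus arrays and 3.36, 2.35, 2.73, 3.11 and 2.29 on the cerebellum arrays, without overlap, and differed by 3.7 ± 0.41 (adjusted p = 8.72e-05). Dner, a surface protein that binds Notch and is known from Purkinje neurons and astroglia, differed by 2.49 ± 0.43 (adjusted p = 0.0034). Adam10, a protease that cleaves Notch, differed by -1.71 ± 0.43 (adjusted p = 0.0341) (4 of 10 fits, largest adjusted p = 0.0869 without cerebellum 5), and Psenen, a subunit of gamma-secretase, by -1.27 ± 0.31 (adjusted p = 0.0322) (4 of 10, largest adjusted p = 0.0855 without cerebellum 5).

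BMP and TGF-beta genes were called for 2 higher and 6 lower of 47, with a median of 0.01. Tgfb2, a secreted ligand, read 6.84, 6.88, 5.03, 4.47 and 5.97 on the hippocampus arrays and 1.47, 0.57, 2.27, 2.48 and 4.76 on the cerebellum arrays. Cerebellum 5 stood above the other cerebellum arrays and overlapped hippocampus, and the difference was 3.53 ± 0.74 (adjusted p = 0.0134), or 4.14 without cerebellum 5. Smad3, a transducer of TGF-beta receptors, was lower at -4.42 ± 0.69 (adjusted p = 0.00157), Bmp5, a ligand, at -2.95 ± 0.48 (adjusted p = 0.00215), and Bambi, a decoy receptor, at -2.36 ± 0.27 (adjusted p = 0.000129).

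In the Wnt pathway 1 of 58 measured members was higher and 6 lower, with a median of 0.13. Fzd2 was the member higher, and its relative Fzd1 was lower, at 4.96, 3.5, 4.3, 4.73 and 3.51 on the hippocampus arrays and 7.19, 8.25, 7.61, 9.12 and 8.2 on the cerebellum arrays, a difference of -3.87 ± 0.54 (adjusted p = 0.000704). Lgr6, an R-spondin receptor, differed by -3.11 ± 0.52 (adjusted p = 0.00282), Sfrp2 and Wif1, secreted Wnt antagonists, by -2.18 ± 0.29 (adjusted p = 0.000392) and -1.8 ± 0.35 (adjusted p = 0.0086), and Apc, part of the complex that degrades beta-catenin, by -1.12 ± 0.3 (adjusted p = 0.0483) (1 of 10 fits, largest adjusted p = 0.118 without cerebellum 2). Among FGF and EGF family genes 0 of 41 were higher and 3 lower. Fgfr2, an FGF receptor, differed by -2.41 ± 0.52 (adjusted p = 0.0148), Fgf1, a ligand, by -2.37 ± 0.38 (adjusted p = 0.00207), and Dusp6, a feedback phosphatase of that pathway, by -3.0 ± 0.74 (adjusted p = 0.0322) (2 of 10, largest adjusted p = 0.081 without cerebellum 5).

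Matrix genes gave 7 higher and 11 lower of 72 measured, with a median of 0.21. Lecticans, the brain's hyaluronan-binding proteoglycans, went in both directions. Bcan (brevican) read 8.29, 6.79, 8.39, 8.16 and 7.72 on the hippocampus arrays and 4.88, 4.61, 3.05, 5.24 and 4.66 on the cerebellum arrays, and differed by 3.38 ± 0.39 (adjusted p = 0.000133). Vcan (versican) went the other way, at 1.49, 2.68, 1.29, 0.91 and 1.48 on the hippocampus arrays and 5.58, 5.69, 5.77, 5.84 and 5.41 on the cerebellum arrays, a difference of -4.09 ± 0.83 (adjusted p = 0.0109). Cspg5 (neuroglycan C) was higher by 1.62 ± 0.3 (adjusted p = 0.0052). Glypicans were likewise divided, with Gpc6 lower at -4.0 ± 0.58 (adjusted p = 0.000837) where Gpc5 was higher. The testicans Spock2 and Spock3 were lower at -4.24 ± 0.96 (adjusted p = 0.0211) and -3.05 ± 0.22 (adjusted p = 1.66e-06), and Spock2 passed in 5 of 10 fits, largest adjusted p = 0.0561 without cerebellum 4. Without hippocampus 2 the difference of Spock2 was -4.93. The 1 further probe set of Spock3 differed by 0.21 and was not called.

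Adhesion genes gave 3 higher and 9 lower of 63, with a median of -0.02. Lower were Negr1, a neuronal growth regulator of the IgLON family, at -4.24 ± 0.78 (adjusted p = 0.0054), Cdh22, a cadherin, at -3.7 ± 0.39 (adjusted p = 5.28e-05), Pcdh20, a protocadherin, at -3.15 ± 0.19 (adjusted p = 2.9e-07), Nlgn3, a postsynaptic partner of neurexins, at -2.71 ± 0.47 (adjusted p = 0.00345), and Chl1, a relative of L1, at -2.67 ± 0.24 (adjusted p = 1.18e-05). Negr1 ranged from 1.62 to 6.99 over the hippocampus arrays, and its difference was -3.55 without hippocampus 3 and -4.89 without hippocampus 4. Celsr1, a planar polarity cadherin, was higher by 0.84 ± 0.19 (adjusted p = 0.0228) near background (7 of 10, largest adjusted p = 0.0619 without cerebellum 4, not without cerebellum 2, cerebellum 4 or cerebellum 5).

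Axon guidance genes gave 1 higher and 4 lower of 53. Efnb2, a ligand of Eph receptors, read 1.96, 3.28, 1.4, 1.56 and 1.66 on the hippocampus arrays and 5.94, 7.29, 6.45, 6.67 and 7.09 on the cerebellum arrays, and differed by -4.72 ± 0.58 (adjusted p = 0.000225). Plxna2, a semaphorin receptor, differed by -2.74 ± 0.54 (adjusted p = 0.00884), Sema6d, a semaphorin, by -1.43 ± 0.37 (adjusted p = 0.0408) (3 of 10 fits, largest adjusted p = 0.103 without cerebellum 4), and Unc5c, a netrin receptor, by -1.35 ± 0.36 (adjusted p = 0.0492) (3 of 10, largest adjusted p = 0.131 without cerebellum 5). Ephb3, an ephrin receptor, was higher by 1.06 ± 0.26 (adjusted p = 0.0317) (4 of 10, largest adjusted p = 0.0877 without cerebellum 5).

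Genes that move and break down transmitters gave 2 higher and 5 lower of 41. Slc6a11 (GAT-3), the astrocytic GABA transporter, read 4.47, 5.19, 5.47, 6.62 and 6.26 on the hippocampus arrays and 3.68, 2.58, 1.48, 2.83 and 2.77 on the cerebellum arrays, without overlap, and differed by 2.93 ± 0.52 (adjusted p = 0.00407). Slc7a11 (xCT), the cystine-glutamate exchanger, differed by 2.3 ± 0.59 (adjusted p = 0.0405) (1 of 10 fits, largest adjusted p = 0.0989 without cerebellum 5). Maoa, a monoamine oxidase, was lower at -2.85 ± 0.75 (adjusted p = 0.043) (2 of 10, largest adjusted p = 0.0996 without hippocampus 3), or -2.25 without hippocampus 1, and Aldh5a1, which ends GABA breakdown, at -1.7 ± 0.45 (adjusted p = 0.0444) (2 of 10, largest adjusted p = 0.112 without cerebellum 2). Receptors for GABA, purines and other transmitters gave 0 higher and 7 lower of 40. Gabra2 and Gabra4, subunits of the GABA-A receptor, were lower at -3.65 ± 0.67 (adjusted p = 0.0055) and -3.83 ± 0.44 (adjusted p = 0.000121), Gpr37l1, an orphan receptor of astrocytes and Bergmann glia, at -1.97 ± 0.35 (adjusted p = 0.00466), and P2ry1, an ATP and ADP receptor, at -2.03 ± 0.3 (adjusted p = 0.00102).

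Potassium handling gave 1 higher and 3 lower of 33. Kcnk1 (TWIK-1), a two-pore channel, read 6.47, 7.25, 5.68, 6.8 and 6.11 on the hippocampus arrays and 2.86, 1.51, 2.42, 1.74 and 6.04 on the cerebellum arrays, where cerebellum 5 overlapped hippocampus, and differed by 3.55 ± 0.79 (adjusted p = 0.0184) (8 of 10, largest adjusted p = 0.056 without cerebellum 2, not without cerebellum 2 or cerebellum 4) and by 4.33 without cerebellum 5. Kcnj10 (Kir4.1), the inward rectifier that buffers potassium in astrocytes, was lower at -1.59 ± 0.37 (adjusted p = 0.0256) (6 of 10, largest adjusted p = 0.0718 without cerebellum 4, not without hippocampus 3, cerebellum 1, cerebellum 2 or cerebellum 4). Kcnj3, a G protein-gated channel, was lower at -3.16 ± 0.21 (adjusted p = 4.93e-07) and Kcnip3, a channel-binding calcium sensor, at -2.04 ± 0.4 (adjusted p = 0.00936).

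Membrane and junction genes gave 2 higher and 5 lower of 26, with a median of -0.35. Slc2a1 (GLUT1), the glucose transporter of astrocytes and endothelium, read 8.53, 10.16, 9.75, 9.7 and 9.5 on the hippocampus arrays and 7.47, 7.94, 7.86, 8.02 and 8.05 on the cerebellum arrays, and was higher by 1.66 ± 0.37 (adjusted p = 0.0185). Ezr (ezrin), of fine astrocyte processes, was higher by 1.74 ± 0.44 (adjusted p = 0.0379) (2 of 10 fits, largest adjusted p = 0.1 without cerebellum 2). Slc14a1, a urea transporter, was lower at -2.92 ± 0.71 (adjusted p = 0.031) (3 of 10, largest adjusted p = 0.0686 without cerebellum 4), Slc16a1 (MCT1), a lactate transporter, at -2.21 ± 0.47 (adjusted p = 0.0149), Slc4a4, a bicarbonate transporter, at -1.82 ± 0.39 (adjusted p = 0.0161), and Mlc1, a membrane protein of astrocyte endfeet, at -1.39 ± 0.32 (adjusted p = 0.0237) (6 of 10, largest adjusted p = 0.0686 without cerebellum 4, not without hippocampus 3, hippocampus 4, cerebellum 2 or cerebellum 4).

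Among genes of energy metabolism single enzymes were called, 3 higher and 7 lower of 50, with a median of -0.37. Over all genes with a mean of at least 3 in either region, as 41 of the 50 had, the median was -0.75. The glycerol phosphate shuttle carries reducing power into mitochondria through a cytosolic enzyme, Gpd1, and a mitochondrial one, Gpd2, and these went in opposite directions. Gpd2 read 8.04, 6.96, 7.59, 7.59 and 6.64 on the hippocampus arrays and 4.87, 4.5, 4.99, 4.96 and 4.94 on the cerebellum arrays, without overlap, and was higher by 2.51 ± 0.46 (adjusted p = 0.00558), against the negative difference of Gpd1 given above. Hk2, a hexokinase, was lower at -4.25 ± 0.53 (adjusted p = 0.000237), Pfkm, a phosphofructokinase, at -2.11 ± 0.34 (adjusted p = 0.00203), and Pcx (pyruvate carboxylase), which refills the citric acid cycle in astrocytes, at -2.46 ± 0.55 (adjusted p = 0.02) (7 of 10 fits, largest adjusted p = 0.061 without cerebellum 5, not without cerebellum 2, cerebellum 4 or cerebellum 5). Ppargc1a (PGC-1 alpha), a regulator of mitochondrial genes, was higher by 1.3 ± 0.32 (adjusted p = 0.0343) (2 of 10, largest adjusted p = 0.0848 without cerebellum 3). Of 48 measured respiratory chain genes 0 were called by limma and 8 had an unadjusted p under 0.05, all 8 negative. The share of all genes under that unadjusted p was not counted, so the 8 cannot be set beside it. The median over all 48 was -0.52. Of these, 47 had a mean of at least 3 in either region, where the median over all genes was -0.75.

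Lipid genes gave 3 higher and 4 lower of 50, with a median of 0.26, and 40 of them had a mean of at least 3 in either region. Over all genes at that level 1.71% were higher and 11% lower, so the count of lower lipid genes is near that share. Acsl6, an acyl-CoA synthetase, was higher by 1.37 ± 0.32 (adjusted p = 0.0231) (5 of 10 fits, largest adjusted p = 0.0577 without cerebellum 3) and Cyp7b1, a hydroxylase of oxysterols, by 1.78 ± 0.45 (adjusted p = 0.0356) (3 of 10, largest adjusted p = 0.0967 without cerebellum 5). Elovl2, which elongates polyunsaturated fatty acids, was lower at -3.08 ± 0.46 (adjusted p = 0.00114), Lcat, which esterifies cholesterol, at -2.57 ± 0.56 (adjusted p = 0.0173) (9 of 10, largest adjusted p = 0.0505 without cerebellum 4, not without cerebellum 4), and Scd2, a desaturase, at -1.58 ± 0.33 (adjusted p = 0.0116). In the retinoid and thyroid hormone list 1 was higher and 3 lower of 27, with Aldh1a1 described above, Rdh10, which makes retinaldehyde, at -2.43 ± 0.57 (adjusted p = 0.0261) (4 of 10, largest adjusted p = 0.072 without cerebellum 5) and Adh5 at -1.33 ± 0.34 (adjusted p = 0.0373) (2 of 10, largest adjusted p = 0.0908 without cerebellum 5). The 1 further probe set of Adh5 differed by 0.47 and was not called.

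Cyclic AMP, calcium and G protein genes gave 1 higher, Rapgef3, and 5 lower of 55. Pde7b, a phosphodiesterase that degrades cyclic AMP, read 1.5, 1.22, 0.89, 1.24 and 0.98 on the hippocampus arrays and 5.09, 4.34, 4.68, 3.66 and 3.74 on the cerebellum arrays, and was lower at -3.14 ± 0.26 (adjusted p = 4.53e-06). Rgs7bp, an anchor of RGS proteins, was lower at -3.1 ± 0.42 (adjusted p = 0.000509), Gng11, a G protein gamma subunit, at -2.99 ± 0.39 (adjusted p = 0.000347), Prkcb, a protein kinase C, at -2.13 ± 0.34 (adjusted p = 0.00189), and Rgs2, a brake on Gq signalling, at -1.62 ± 0.4 (adjusted p = 0.0315) (3 of 10 fits, largest adjusted p = 0.077 without cerebellum 5). The 2 further probe sets of Prkcb each differed by 0.3 and were not called.

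Among lists on cell state, calls are set beside 0.808% higher and 3.97% lower over all genes. Over genes with a mean of at least 3 in either region these shares were 1.71% and 11%. Of 36 measured reactive astrocyte genes 1 was higher and 2 lower, among them S100a10 at -4.35 ± 1.1 (adjusted p = 0.0365) (3 of 10 fits, largest adjusted p = 0.0898 without hippocampus 3), which ranged from 1.66 to 7.61 in hippocampus and differed by -5.0 without hippocampus 4 and -3.51 without hippocampus 5. Of 40 immediate early and dissociation genes Nr4a3, a rapidly induced nuclear receptor, was higher at 1.31 ± 0.21 (adjusted p = 0.00221), and the chaperones Hspa8 and Hspe1 were lower at -0.72 ± 0.18 (adjusted p = 0.036) (3 of 10, largest adjusted p = 0.103 without cerebellum 5) and -1.51 ± 0.37 (adjusted p = 0.0322) (2 of 10, largest adjusted p = 0.0798 without hippocampus 3). Ribosomal protein genes gave 0 higher and 1 lower of 34, Rpl14 at -1.72 ± 0.42 (adjusted p = 0.0322) (2 of 10, largest adjusted p = 0.0783 without cerebellum 2), with a median of -0.21.

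**Figure D4:**
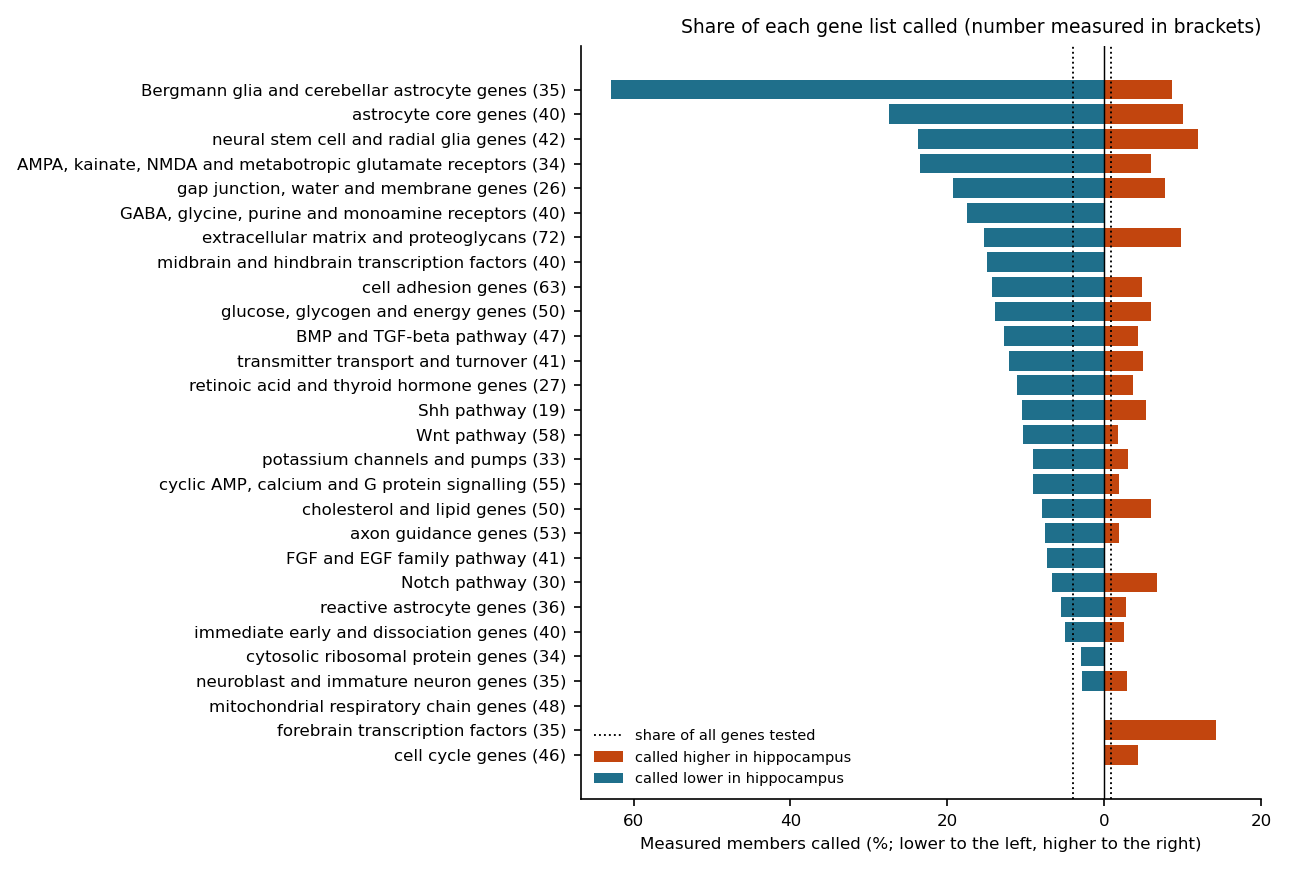
Percent of the measured members of each gene list that were called lower (left) or higher (right) in hippocampus, with the share over all 18193 genes as dotted lines (3.97% lower, 0.808% higher). Over genes with a mean of at least 3 in either region the shares were 11% lower and 1.71% higher (not drawn). The Bergmann glia list has the longest bar to the left, with 22 of 35 members, and forebrain transcription factors have 5 of 35 to the right and 0 to the left.

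Markers of other cell types were read on the same arrays. Oligodendrocyte markers Mog and Mag were near background in both regions, with maxima of 1.38 and 0.86 in hippocampus and 0.9 and 1.26 in cerebellum, and Mobp reached 2.8 and 1.9. Other genes of that list were lower, namely Cnp, a myelin enzyme, at -2.97 ± 0.26 (adjusted p = 8.26e-06), and Plekhb1 at -2.05 ± 0.5 (adjusted p = 0.0298) (5 of 10 fits, largest adjusted p = 0.0793 without cerebellum 2). The list's summed signal was 739 to 1440 against 1940 to 2400. Cnp was a large part of that sum in cerebellum, where it read 9.94 to 10.39 beside a log2 sum of 10.92 to 11.23. In hippocampus these were 6.49 to 7.98 and 9.53 to 10.49. The sum without Cnp was not computed. Pdgfra, which defines oligodendrocyte precursors, did not exceed 1.95, and Cspg4 reached 2.54 in hippocampus and 1.33 in cerebellum. Of 22 measured precursor markers 3 were higher and 3 lower, including Nkx2-2 at -2.55 ± 0.67 (adjusted p = 0.0427) (5 of 10, largest adjusted p = 0.111 without cerebellum 4, -1.88 without hippocampus 1) and Rlbp1 at 1.15 ± 0.3 (adjusted p = 0.0444) (1 of 10, largest adjusted p = 0.104 without cerebellum 5).

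Cerebellar neuron markers were lower for 4 of 25, namely Pvalb, Pcp2, Calb1 and Aldoc. Pvalb (parvalbumin), of Purkinje cells and interneurons, read 0.83, 1.21, 2.1, 2.0 and 0.93 on the hippocampus arrays and 6.91, 5.87, 6.5, 4.17 and 5.46 on the cerebellum arrays, and differed by -4.37 ± 0.46 (adjusted p = 5.3e-05). Pcp2, of Purkinje cells, read 1.75, 0.96, 0.92, 1.02 and 0.89 on the hippocampus arrays and 4.93, 4.39, 1.84, 2.19 and 2.72 on the cerebellum arrays. It was high on cerebellum arrays 1 and 2, and differed by -2.11 ± 0.49 (adjusted p = 0.0244) (6 of 10 fits, largest adjusted p = 0.0654 without cerebellum 2, not without hippocampus 3, hippocampus 4, hippocampus 5 or cerebellum 2). Granule neuron markers Gabra6, Cbln1 and Fat2 were at 1.97 or less on each of the 10 arrays, whereas Cbln3 reached 1.25 in hippocampus and 2.7 in cerebellum. The summed signal of the list was 964 to 1650 in hippocampus and 1980 to 3230 in cerebellum. Most of it was Aldoc, also a core astrocyte gene, which read 9.36 to 10.56 in hippocampus and 10.5 to 11.3 in cerebellum. The log2 of the sum was 9.91 to 10.69 and 10.95 to 11.66 in the same order. The sum without Aldoc was not computed. Of 28 general neuron markers 1 was lower, Map2 at -1.53 ± 0.28 (adjusted p = 0.00468), and their summed signal was 234 to 509 in hippocampus and 475 to 854 in cerebellum. Rbfox3 did not exceed 1.9 and Syt1 reached 2.16 and 2.56, while Snap25, a synaptic release protein, ranged from 1.59 to 5.34 in hippocampus and from 4.54 to 7.94 in cerebellum (difference -2.12, adjusted p = 0.234).

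Hippocampal neuron markers gave 0 higher and 3 lower of 31, among them Sv2b, a synaptic vesicle protein, at -4.64 ± 0.28 (adjusted p = 2.9e-07) and Tdo2, a tryptophan dioxygenase, at -2.83 ± 0.47 (adjusted p = 0.00282). The markers Neurod6 and Spink8 did not exceed 1.73 on any array of either region. Prox1, a factor of dentate granule neurons, reached 3.43 in hippocampus and 4.38 in cerebellum. Wfs1, of pyramidal neurons, ranged from 0.84 to 5.71 and from 4.79 to 6.5 (difference -2.01, adjusted p = 0.14). The part of neuronal RNA in the differences was not tested.

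Choroid plexus markers varied widely between arrays of the same region. Ttr (transthyretin), the main secreted protein of choroid plexus, ranged from 11.18 to 13.94 in hippocampus and from 6.87 to 13.99 in cerebellum, Folr1 from 0.88 to 7.26 and from 0.9 to 6.71, and Kl from 1.11 to 7.79 and from 0.69 to 6.65. Of 20 measured choroid plexus markers 0 were called by limma and 0 had an unadjusted p under 0.05. Summed signals were 2440 to 20100 and 298 to 19300. Meningeal markers had 1 of 19 called, Fmod (fibromodulin), lower at -4.39 ± 0.6 (adjusted p = 0.000539), while 17 of the 19 had a positive difference, with a median of 0.48. Dcn and Col1a1, of fibroblasts, differed by 1.0 (adjusted p = 0.213) and 0.95 (adjusted p = 0.398). Ependymal markers had 1 of 27, Tppp3, a tubulin-binding protein, lower at -1.91 ± 0.36 (adjusted p = 0.00572), with Foxj1 at medians of 1.59 and 2.56 and Tmem212 at 0.91 or below. Red blood cell markers had 0 of 6 called by limma and 0 at an unadjusted p under 0.05. Endothelial and pericyte markers had Slc2a1 higher and Slc16a1 lower of 33, both also astrocytic. Pecam1 did not exceed 1.57, Cldn5 reached 4.17 in hippocampus and 3.16 in cerebellum, Flt1 reached 3.77 and 1.45, and Pdgfrb, of pericytes, ranged from 3.02 to 6.54 and from 2.29 to 4.47 (difference 1.68, adjusted p = 0.148).

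**Figure D5:**
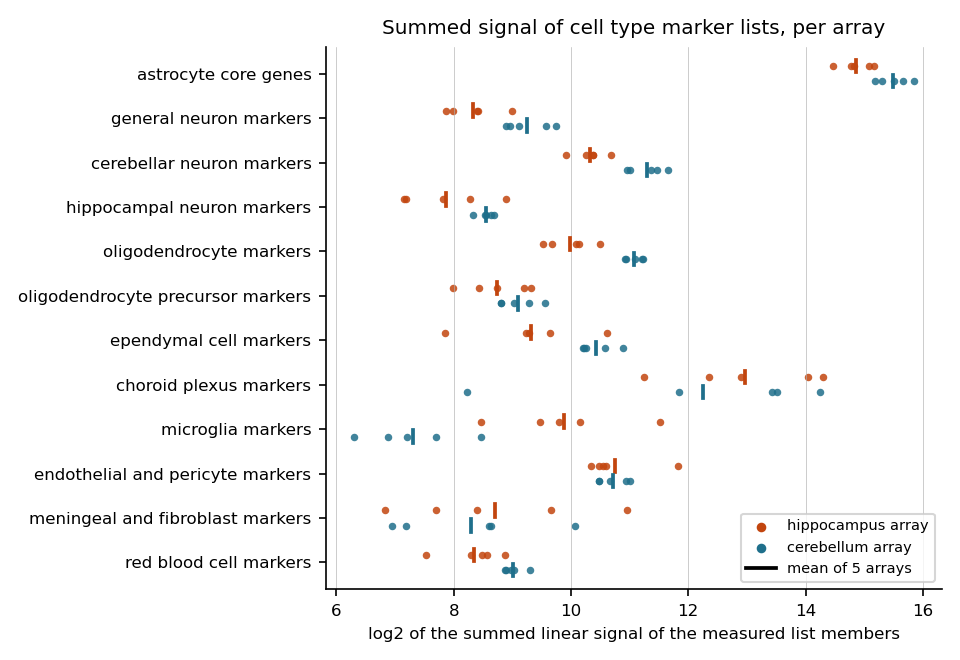
Summed linear signal of the measured members of each cell type list, as log2, for each hippocampus and cerebellum array (points) with the mean of 5 arrays (bars). The cerebellar neuron sum is mostly Aldoc, which is also on the astrocyte list. Astrocyte genes are far above the other lists except choroid plexus on some arrays, and the microglia list is higher on the hippocampus arrays, where hippocampus 4 is lowest and level with the highest cerebellum array.

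Against SVZ, the other forebrain region, 4 of 18193 genes differed from hippocampus by limma, 1 higher (0.0055%) and 3 lower (0.0165%), while 1277 had an unadjusted p under 0.05. Kantr, a long noncoding RNA gene, read 6.37, 6.21, 6.21, 6.8 and 6.84 on the hippocampus arrays and 5.12, 4.78, 5.0, 4.75 and 4.46 on the SVZ arrays, a hippocampus minus SVZ difference of 1.66 ± 0.18 (adjusted p = 0.00335). Them4 read 2.72, 2.35, 1.37, 2.87 and 1.97 in hippocampus and 4.25, 4.13, 5.03, 5.12 and 4.19 in SVZ, a difference of -2.29 ± 0.3 (adjusted p = 0.0216). Gsdme, a gasdermin, read 4.41, 4.79, 4.26, 5.6 and 4.89 and 7.31, 6.77, 6.78, 7.75 and 6.01, a difference of -2.13 ± 0.31 (adjusted p = 0.0295). Rab34, a small GTPase of ciliogenesis, read 2.63, 3.52, 3.23, 3.88 and 3.53 and 4.72, 4.73, 5.07, 5.6 and 4.73, a difference of -1.61 ± 0.23 (adjusted p = 0.0295). All 4 genes had no overlap between hippocampus and SVZ. The count was 0 when dim genes were left out, when probe sets of a gene were averaged, or with a trended prior, and 1 to 11 when 1 of the 15 arrays was left out, where leaving out SVZ arrays was added after seeing the data. It rose to 11 without SVZ 1, and fell to 2 without SVZ 2, 2 without SVZ 3, 1 without SVZ 4, 2 without hippocampus 3, 1 without hippocampus 5, 2 without cerebellum 1, 2 without cerebellum 2, 1 without cerebellum 3, 2 without cerebellum 4 and 1 without cerebellum 5. Gfap and Fezf2, at hippocampus minus SVZ differences of 2.42 ± 0.59 (adjusted p = 0.364) and 2.4 ± 0.42 (adjusted p = 0.144), did not pass, and a p that misses the threshold does not show equal levels.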

How the data were processed

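RNA of sorted cells was amplified and hybridised to Affymetrix mouse arrays, 5 per region, and per the submitters' processing notes the deposited values were made with RMA. The authors deposited them as 1 table, read here as log2 from its range; no source used here gives the log base. Of 45101 probe sets, 34958 had 1 gene symbol, 932 several and 9211 none in the platform annotation. Symbols were updated through Entrez identifiers. Control probe sets were left out, and each of 18193 genes was represented by its brightest probe set, judged by the mean of 15 arrays. The called genes had 1089 further probe sets. Of these, 881 had the same sign, 286 were called in the same direction and 0 in the other.

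Region was fitted over all 15 arrays with limma 3.58.1 in R 4.3.3, without renormalization or filter. P-values were adjusted by Benjamini-Hochberg over all genes and called at 0.05. The fit was tested on simulated data. Named genes are the 15 largest called, non-overlapping differences each way, the sort genes and Shh pathway, up to 5 called genes each way per list (the 2 smallest p where none was called) and genes called against SVZ. Defining markers of other cell types are given by their range, median or highest value. Uncalled Shh pathway genes near background, and uncalled genes of lists with no call, are given only as counts. Members and the 39 lists were chosen with earlier results of these data known. Summed signals add 2 to the power of each member's level. Promoter stretches are RefSeq's. Same-numbered hippocampus and cerebellum arrays had deviations correlated at -0.121 to 0.138, and other pairs at -0.182 to 0.385. The main fit therefore did not pair them, though so few pairs cannot show that no preparation was shared. A fit with the number as a block is given below. Alternatives covered scaling, filters, probe set choice, covariates, weights and leaving out arrays.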

Additional observations from a re-analysis of the deposited data

Results flagged for a closer look

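In 22 of 330 sets of 5 arrays (165 named genes in both regions), 1 array stood apart from the other 4 by Dixon's criterion, which chance alone reaches in about 5% of sets. Of these, 10 were in hippocampus (5 of them hippocampus 2, 3 hippocampus 4) and 12 in cerebellum (5 each cerebellum 1 and cerebellum 3). Their part in the differences beyond the values without an array was not tested.

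Hippocampus 5 read 6.22 for Gli1 against 1.54 to 2.19 on the others. Hippocampus 4 read 5.1 for Aldh5a1 (others 2.99 to 3.55), 2.57 for Grin2c (5.44 to 6.1) and 3.19 for Hhip (1.42 to 1.77). Hippocampus 2 read 7.0 for Bmpr1a (5.98 to 6.17), 3.94 for Fmod (1.07 to 1.62), 4.67 for Hapln1 (6.03 to 6.49), 4.56 for Ppargc1a (5.98 to 6.44) and 8.61 for Slc1a3 (9.74 to 10.15). Hippocampus 1 read 1.75 for Pcp2 (0.89 to 1.02).

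Cerebellum 1 stood above the others for 5 genes, at 5.78 for Chst1 (2.29 to 2.69), 8.8 for Cpe (7.73 to 7.97), 2.75 for Gpc5 (0.62 to 0.9), 3.69 for Nr2e1 (0.9 to 1.6) and 3.86 for Prom1 (0.53 to 1.24). All 5 were called higher in hippocampus, and the calls passed in each of the fits without 1 array. Cerebellum 3 read 6.01 for Acsl6 (6.63 to 6.87), 3.05 for Bcan (4.61 to 5.24), 12.27 for Fabp7 (11.95 to 12.03), 5.16 for Kcnip3 (6.07 to 6.38) and 2.48 for Smo (4.89 to 5.83). Cerebellum 2 read 4.5 for Gpd2 (4.87 to 4.99) and 6.85 for Psenen (7.46 to 7.63).

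Hippocampus and SVZ differed by the limma fit for Kantr (1.66), Gsdme (-2.13), Rab34 (-1.61) and Them4 (-2.29), each as hippocampus minus SVZ.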

How the results depend on the processing

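Besides a stricter threshold, 21 alternatives were run for single genes. Of the 158 called genes named here, 143 could be tested in all 21 (dim genes left out tested 143, raised low values 151), and 60 of these kept their call at 0.05 in all 21. Each of the 158 kept its sign wherever it was tested. Genes called lower numbered 337 after quantile normalization (229 by the design thresholds), 178 with the spike-in covariate (292), 313 at an adjusted p under 0.01, and 297 without cerebellum 4 and cerebellum 5, the last chosen after seeing the data. Genes called higher numbered 34, 52 and 61 with the covariate, the stricter p and without those arrays, 225 with array weights, and 87 with values under 3 raised to 3, where the design thresholds gave 45 and 252. Averaging the probe sets of a gene gave 44 and 270 by the design thresholds. Hippocampus against SVZ gave 2 genes with the covariate, 1 with array weights, with the stricter p or without cerebellum 4 and cerebellum 5, and 0 with dim genes left out, the mean of probe sets or the trended prior. Leaving out 1 array gave 76 to 228 genes higher, 456 to 934 lower, 68 to 87 and 388 to 587 by the design thresholds, and 1 to 11 against SVZ, where SVZ arrays were left out too, a choice made after seeing the data. With the replicate number as a block, 121 were higher and 693 lower, of which 103 and 589 were shared with the fit without it, and 134 of the 158 named calls held. Some uncalled Shh pathway genes changed sign, namely Gli1 (0.06 after quantile normalization, 0.42 with raised low values), Hhip (0.04 with raised low values, 0 with the mean of probe sets), Smo (-0.09 without hippocampus 3 and -0.16 without cerebellum 3, up to 1.15 without hippocampus 5) and Gli3 (-0.03 without hippocampus 5 or cerebellum 3, 0.68 without hippocampus 3, 0.72 after quantile normalization). Except where fewer arrays or genes entered, the cause was not tested. Signal near background limits the folds of dim genes.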
